A study of Mus musculus with 3 samples.

Results

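The genes described here make lysosomes and acidify them: 18 luminal hydrolases, 3 soluble cofactors, 9 membrane proteins, 11 genes of the vacuolar proton pump (V-ATPase) and 3 transcription factors of the MiT family. They were taken by symbol from the deposited gene tables, where all 44 symbols were found among 55536 gene rows, 22028 of them protein-coding. Total RNA depleted of ribosomal RNA was sequenced from the cytosolic fraction of bone-marrow-derived macrophages of C57BL/6J mice. All libraries came from cells that received 100 ng/ml Lipid A for 12 h, were washed out for 12 h and then received 100 ng/ml Lipid A for 120 min. Lipid A is the part of bacterial lipopolysaccharide that TLR4 senses. The labels gave this 1 group with biological replicates 1, 2 and 3, gave neither age nor sex of the mice, and tied all 3 to a single donor entry. No unstimulated or once-stimulated cells belonged to the group, so no effect of Lipid A can be read from it, and the spread between replicates may be technical.

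Lysosomes digest material delivered by endocytosis, phagocytosis and autophagy. Their hydrolases work at acid pH, which the V-ATPase maintains by pumping protons into the lumen, and heavily glycosylated membrane proteins line the inner face of the membrane. TFEB, TFE3 and MITF bind E-box-like elements in promoters of lysosomal genes and are held in the cytosol by mTORC1 phosphorylation when nutrients are plentiful. Macrophages carry many lysosomes, in which they break down engulfed particles.

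Depth was 29376859 expected counts in replicate 1, 64822118 in replicate 2 and 37665844 in replicate 3, where an expected count is a read count apportioned among overlapping transcripts. Levels are TPM as deposited, a measure per length that sums to the same total in each library, and a mean ± SD is over 3 libraries. The protein-coding share of all TPM was 32.5% in replicate 1, 26.5% in replicate 2 and 27.1% in replicate 3, so a gene with a constant share of the protein-coding total has a higher TPM in replicate 1. All 12 macrophage markers tested, among them Csf1r and Adgre1, reached 1 TPM in every library, with a list median of 202 ± 41.3 TPM. No marker of T and NK cells, B cells, fibroblasts, erythroid cells, mast cells or melanocytes did. Of the neutrophil list 3 of 8 did, with the list's summed level between 5.91 and 9.56 TPM. Those 3 were S100a9 at 3.48 ± 1.38 TPM, S100a8 at 2.08 ± 0.572 and Mmp8 at 1.98 ± 0.273, and Ly6g was at 0.00333 ± 0.00577. Of the endothelial list 2 of 6 did, with a sum between 4.67 and 11.03 TPM, Tek at 0, and Kdr at 7.09, 3.24 and 2.29 TPM and Vwf at 2.95, 2.92 and 1.62 TPM as the members that reached it. The nuclear RNA Malat1 stood at 191, 133 and 952 TPM in replicates 1, 2 and 3, highest in replicate 3.

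All 44 genes were detected, and most stood high among the transcripts of these cells. Each reached 1 TPM in every library, 38 reached 10 TPM and 13 reached 100 TPM. Of the 8612 protein-coding genes at 1 TPM or more in every library, 39.1% reached 10 TPM and 4.31% reached 100 TPM. The mean level was above the median of those genes (8.03 TPM) for 40 of the 44, above their upper quartile (19.9 TPM) for 35 and above their 99th percentile (337 TPM) for 6. The 44 genes together held 2.97%, 3.12% and 3.01% of the protein-coding TPM in replicates 1, 2 and 3. By role the median level was 654 ± 104 TPM for the cofactors, 129 ± 29.7 for the membrane proteins, 72.5 ± 10.7 for the V-ATPase genes, 39.6 ± 1.74 for the hydrolases and 18.3 ± 2.22 for the MiT factors.

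**Figure D1:**
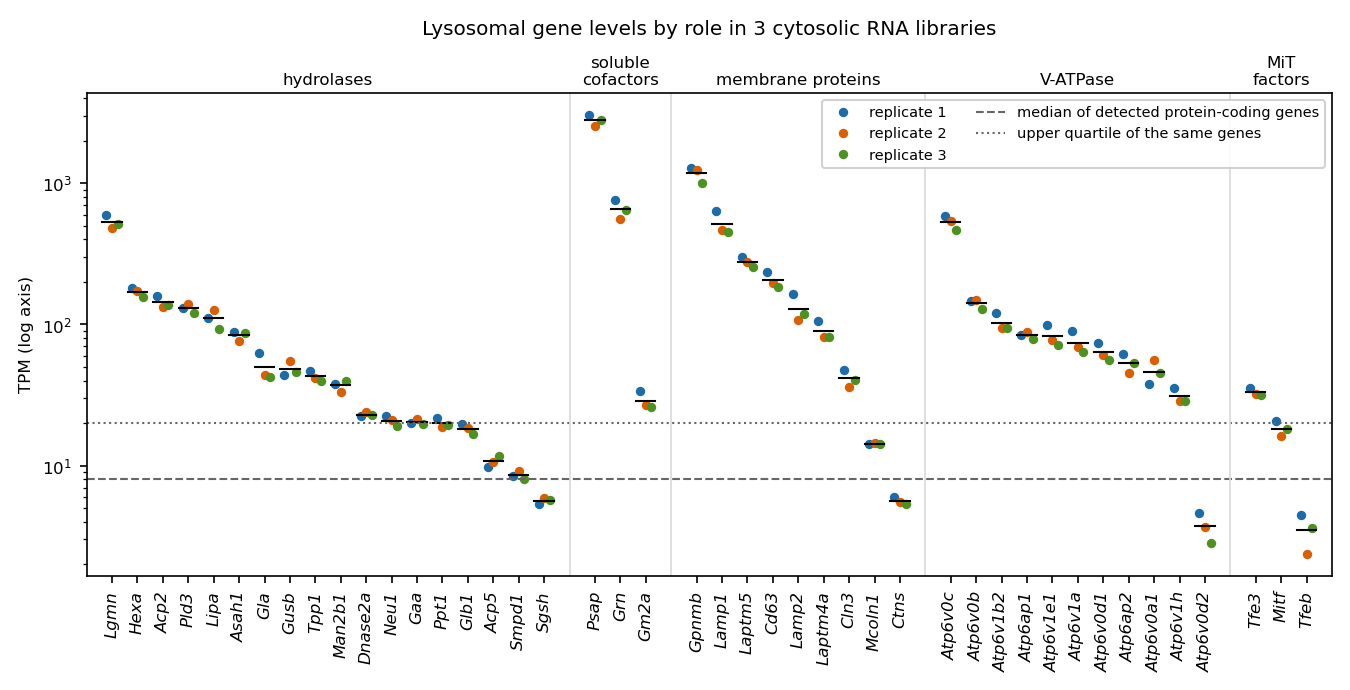
TPM of each of the 44 genes on a log axis, with genes grouped by role and ordered by mean, coloured points for the replicates, black bars for the mean of 3 libraries and grey lines at the median (8.03 TPM) and upper quartile (19.9 TPM) of the detected protein-coding genes. Psap stands highest and Tfeb lowest, and Sgsh, Ctns, Atp6v0d2 and Tfeb have means under the grey dashed line.

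On the log2(TPM + 1) scale, the hydrolase median minus the V-ATPase median was -0.854 ± 0.185 (mean ± SD over libraries, lower in 3 of 3). The membrane protein median exceeded the hydrolase median by 1.67 ± 0.263, and the V-ATPase median exceeded that of the MiT factors by 1.93 ± 0.141, both in 3 of 3 libraries. Roles overlapped widely: the lowest hydrolase, membrane protein and V-ATPase gene had means of 5.64, 5.63 and 3.71 TPM, and the highest of each 531, 1184 and 532 TPM. On CPM, in which counts are scaled to library size but not divided by length, the hydrolase and V-ATPase medians differed by 0.049 ± 0.085, with the sign turned, and the other 2 differences fell to 0.583 ± 0.192 and 0.692 ± 0.240. The order of roles also depends on the genes chosen. In lists of further genes, described below, the median was 20.8 ± 1.24 TPM for soluble lysosomal proteins and 10.7 ± 1.88 for lysosomal membrane genes. It was 3.86 ± 0.228 TPM for V-ATPase genes, of which 7 of 14 reached 1 TPM in every library. Soluble proteins thus stood above the membrane and V-ATPase genes in those lists, unlike the hydrolases here.

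Among the hydrolases, Lgmn, the asparaginyl endopeptidase that also trims other lysosomal proteases, was the highest. It measured 595, 486 and 513 TPM in replicates 1, 2 and 3 (mm10, ENSMUSG00000021190.14, chromosome 12, 102394084 to 102439813). Next came Hexa, the alpha subunit of beta-hexosaminidase, at 181, 174 and 157 TPM. Acp2, a lysosomal acid phosphatase, followed at 160.3, 132 and 138 TPM, and Pld3, an exonuclease of single-stranded nucleic acids, at 131, 140.0 and 120.4 TPM. The ranges of Hexa and Acp2 overlapped, as did those of Acp2 and Pld3, while every library of Lgmn lay above every library of Hexa. Lowest was Sgsh, the sulfamidase of heparan sulfate, at 5.33, 5.89 and 5.70 TPM, and in scaled CPM, where counts are set against library size, its highest library was 1.30 times its lowest.

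The other 13 hydrolases lay between 8.58 and 111 TPM on average. Lipid-degrading enzymes spread over most of that range: Lipa, which releases cholesterol from its esters, had 111 ± 17.1 TPM, Asah1, the acid ceramidase, 83.9 ± 6.72, Ppt1, which removes fatty acids from proteins, 20.05 ± 1.65, and Smpd1, the acid sphingomyelinase, 8.58 ± 0.604. The 6 glycosidases besides Hexa lay closer together. Gla, which removes terminal alpha-galactose, had 49.8 ± 11.2 TPM, Gusb, the beta-glucuronidase, 48.4 ± 5.77, and Man2b1, an alpha-mannosidase, 37.1 ± 3.53. Neu1, a sialidase, had 20.9 ± 1.57 TPM, Gaa, which degrades glycogen, 20.4 ± 0.981, and Glb1, the beta-galactosidase, 18.3 ± 1.51. The ranges of these last 3 genes over the libraries overlapped. Tpp1, a tripeptidyl peptidase, had 43.0 ± 3.45 TPM, Dnase2a, the acid DNase, 23.0 ± 0.799, and Acp5, the tartrate-resistant phosphatase, 10.7 ± 0.949.

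A list of 18 further soluble lysosomal proteins gave the context for these enzymes, and all 18 reached 1 TPM in every library, with a median of 20.8 ± 1.24 TPM. Ctsa, the protective protein that stabilises Neu1 and Glb1, was its highest at 241 ± 11.6 TPM, and Arsb, a sulfatase of dermatan sulfate, its lowest at 2.94 ± 0.318. Npc2, which carries cholesterol, was at 239 ± 58.3 TPM and above Ctsa in replicate 1, so the order of Ctsa and Npc2 was within their spread. Of 6 genes that tag enzymes with mannose 6-phosphate or carry them to lysosomes, 5 reached 1 TPM in every library. M6pr, the cation-dependent receptor, had 103 ± 6.94 TPM, against 9.47 ± 1.15 for the cation-independent receptor Igf2r and 0.713 ± 0.103 for the sorting receptor Sort1.

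The cofactors do not cut bonds themselves but present substrates or shape other lysosomal proteins. Psap encodes prosaposin, the precursor of the saposins that help sphingolipid hydrolases, and ranked 8 of the 8612 detected protein-coding genes. It measured 3056, 2540.05 and 2791 TPM in replicates 1, 2 and 3 (ENSMUSG00000004207.14, chromosome 10, 60277627 to 60302597). Grn, which encodes progranulin, had 762, 555 and 644 TPM. Gm2a, the activator that lifts GM2 ganglioside for the Hexa product, was far lower at 33.8, 26.9 and 25.95 TPM.

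Psap transcripts can carry a very short extra exon within the saposin B region, and most of the Psap signal lacked it. The coding stretches below come from the GENCODE M21 transcripts (chromosome 10, plus strand). Inserted bases, placed from the first difference on, are in capitals, with the leading transcript Psap-202 in lower case throughout.
Psap-202: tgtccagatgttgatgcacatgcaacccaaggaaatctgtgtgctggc
Psap-205: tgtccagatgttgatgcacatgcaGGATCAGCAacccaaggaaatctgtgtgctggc
Psap-201: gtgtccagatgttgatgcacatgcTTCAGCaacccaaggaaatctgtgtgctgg
Placed in this way, the 9 or 6 inserted bases follow coding base 776 or 775 of Psap-202, and they keep the reading frame. Bases at the edges of the insertions repeat, so the same sequences also allow a single shared junction a little earlier. The capitals therefore need not mark the exact bounds of the exon. Psap-202 took 53.2%, 47.6% and 53.6% of the Psap transcript TPM in replicates 1, 2 and 3. The 3 annotated transcripts with an insertion at this place together took 2.68%, 3.94% and 2.71%. Psap-203, which starts from another first exon and also lacks the insertion, took 45.4% ± 2.63.

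Membrane proteins had the largest ratio of highest to lowest member among the roles. Gpnmb, a glycoprotein of phagosomes and lysosomes, measured 1293, 1251 and 1006 TPM in replicates 1, 2 and 3, and ranked 16 of the detected protein-coding genes (ENSMUSG00000029816.10, chromosome 6, 49036546 to 49070929). Lamp1, which with Lamp2 makes up much of the lysosomal membrane protein, had 632, 466 and 455 TPM. The adaptor-like Laptm5, expressed mainly in blood cells, had 301, 277 and 256 TPM, and the tetraspanin Cd63 235, 196 and 184 TPM. In all 4 genes replicate 1 was the highest and replicate 3 the lowest on the TPM scale. In scaled CPM replicate 3 was again the lowest for all 4, but replicate 2 was the highest for Gpnmb and Laptm5. Lamp2 followed at 163, 107 and 118 TPM and Laptm4a at 89.7 ± 14.2. Cln3, the membrane protein altered in juvenile Batten disease, had 41.4 ± 5.77 TPM. Mcoln1, the calcium channel whose opening activates TFEB through calcineurin, had 14.2, 14.4 and 14.1 TPM, with the libraries almost equal on that scale. In scaled CPM it had 38.1, 44.1 and 40.0, a highest-to-lowest ratio of 1.16. Ctns, the cystine exporter, was the lowest at 6.02, 5.56 and 5.32 TPM.

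Of 17 other lysosomal membrane genes, 15 reached 1 TPM in every library, with a list median of 10.7 ± 1.88 TPM. Cd68, a macrophage relative of the LAMP proteins, was the highest at 586 ± 89.0 TPM. The LAMP paralogs of dendritic cells and neurons were at or near 0: Lamp3 at 0.00333 ± 0.00577 TPM and Lamp5 listed at 0 in every library. Laptm4b, the paralog of Laptm4a, had 1.58 ± 0.382 TPM.

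Almost all Lamp2 RNA was divided between 2 alternative last exons. The gene is spliced to 3 different ends, which change the last stretch of the luminal domain, the membrane span and the cytosolic tail. The end of Lamp2-201 encodes the LAMP2A tail known from chaperone-mediated autophagy, and those of Lamp2-202 and Lamp2-203 encode the LAMP2B and LAMP2C tails. The coding ends are printed from the GENCODE M21 transcripts (chromosome X, minus strand), with shared bases in lower case and each transcript's own end in capitals, from coding base 1110 to the last sense codon.
Lamp2-201: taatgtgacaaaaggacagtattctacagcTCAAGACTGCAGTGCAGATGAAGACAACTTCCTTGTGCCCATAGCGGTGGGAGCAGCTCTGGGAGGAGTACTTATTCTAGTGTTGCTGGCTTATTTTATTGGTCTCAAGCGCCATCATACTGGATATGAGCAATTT
Lamp2-202: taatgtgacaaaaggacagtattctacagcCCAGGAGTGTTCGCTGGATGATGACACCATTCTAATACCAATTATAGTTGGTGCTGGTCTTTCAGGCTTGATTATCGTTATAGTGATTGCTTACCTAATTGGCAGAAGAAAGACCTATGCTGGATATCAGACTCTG
Lamp2-203: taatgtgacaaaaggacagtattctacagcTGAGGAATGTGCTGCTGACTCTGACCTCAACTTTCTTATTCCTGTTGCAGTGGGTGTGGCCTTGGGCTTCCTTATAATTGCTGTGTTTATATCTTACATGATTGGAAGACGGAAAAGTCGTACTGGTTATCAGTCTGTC
Lamp2-201 took 50.7%, 56.0% and 46.3% of the Lamp2 transcript TPM in replicates 1, 2 and 3. Lamp2-202 took 48.6%, 43.3% and 52.1%. The order of these 2 was thus turned in replicate 3, and their means differed by less than the spread between libraries. Lamp2-203 took 0.460%, 0.449% and 0.287%. In the second quantification, a separate transcript table deposited for the same libraries, the split was less even. There Lamp2-201 took 56.4% ± 5.27, Lamp2-202 42.5% ± 4.77 and Lamp2-203 0.422% ± 0.0300.

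The V-ATPase has a membrane part, V0, that conducts protons and a cytosolic part, V1, that splits ATP. Atp6v0c, which encodes the proteolipid of the rotating ring and is present in several copies per pump, was the highest at 590, 538 and 469 TPM in replicates 1, 2 and 3 (ENSMUSG00000024121.13, chromosome 17, 24163866 to 24169702). Atp6v0b, the other ring subunit, had 147, 149.7 and 129 TPM. Both were lowest in replicate 3. Of the V1 head, Atp6v1b2 had 121, 94.1 and 94.8 TPM and its partner Atp6v1a, the catalytic subunit, 90.3, 69.2 and 63.9 TPM. The stalk subunit Atp6v1e1 had 98.9, 77.8 and 71.8 TPM and Atp6v1h, a regulatory subunit that joins V1 to V0, 35.4, 28.7 and 28.8 TPM. In each of these 4 V1 genes replicate 1 was the highest on the TPM scale. The accessory genes Atp6ap1 and Atp6ap2, needed for assembly, had 84.5, 88.4 and 79.5 TPM and 61.8, 45.0 and 53.2 TPM.

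At each position that alternative genes can fill, 1 gene led. Tcirg1, the a3 form known from lysosomes and from osteoclasts, took 73.8% ± 2.95 of the summed TPM of the 4 a-subunit genes, at 151, 153 and 141 TPM. The member Atp6v0a1 took 22.8% ± 3.37, at 37.65, 55.6 and 45.2 TPM, highest in replicate 2. Atp6v0a2 took 3.37% ± 0.420 and Atp6v0a4, a kidney form, was listed at 0. Of the d subunit, Atp6v0d1 had 73.4, 60.7 and 56.1 TPM and took 94.5% ± 0.623. Atp6v0d2, known from osteoclasts and renal cells, had 4.64, 3.67 and 2.81 TPM. On the log2(TPM + 1) scale its level minus that of Atp6v0d1 was -3.78 ± 0.106, with the same sign in 3 of 3 libraries. Of 8 osteoclast markers, Nfatc1 alone reached 1 TPM in every library, at 5.79 ± 0.968, the summed level of the list was between 5.91 and 8.25 TPM, and Calcr had 0.00333 ± 0.00577.

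**Figure D2:**
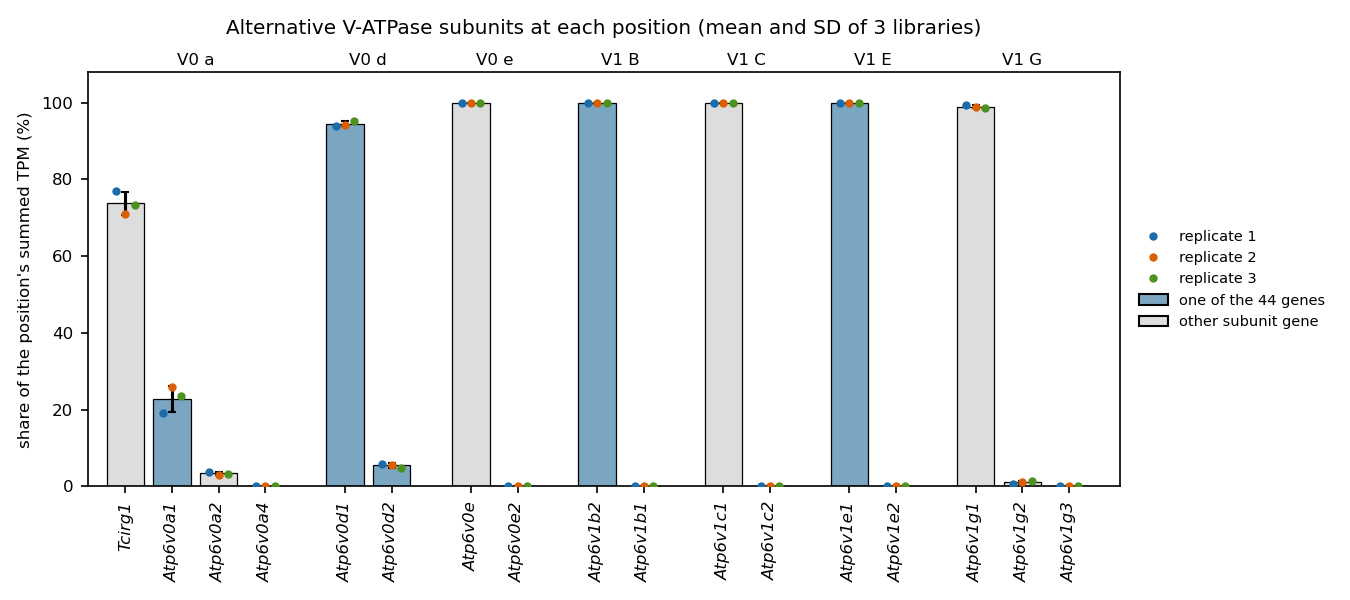
Share (%) of each gene in the summed TPM of the genes that can fill its V-ATPase position. Bars are means of 3 libraries with SD, points are replicates, blue bars are genes among the 44 and grey bars other subunit genes; only the a position shows a second gene above 20% (Atp6v0a1, 22.8%).

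The remaining positions were near-exclusive. Atp6v1b2 took 99.99% against the renal Atp6v1b1, Atp6v1g1 took 98.96% ± 0.389 against the neuronal Atp6v1g2, and Atp6v0e took 99.996% against Atp6v0e2. Atp6v1c2, Atp6v1e2 and Atp6v1g3 were listed at 0 in every library. Of 14 V-ATPase genes outside the 44, 7 reached 1 TPM, and the 7 that did not were the tissue-restricted forms of the B, C, E, G, a and e positions. Atp6v1f and Atp6v1d, V1 subunits with a single gene, had 97.1 ± 13.6 and 35.9 ± 12.7 TPM.

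The MiT factors were the lowest role, with Tfe3 the highest of them. It measured 35.45, 32.3 and 31.9 TPM in replicates 1, 2 and 3, Mitf 20.6, 16.2 and 18.04 TPM and Tfeb 4.48, 2.35 and 3.59 TPM (ENSMUSG00000023990.18, chromosome 17, 47737030 to 47792419). The ranges of the 3 genes did not overlap. Tfeb rested on 372, 526 and 415 expected counts, of which that of replicate 1 was the lowest of any of the 44 genes. Its TPM lay below its own deposited interval in all 3 libraries, an interval that in replicate 1 ran from 4.82 to 6.95 TPM. Such a mismatch was not particular to Tfeb or to low counts. Psap lay above its upper bound in all 3 libraries, with 3056 TPM against a bound of 2986 in replicate 1. Tfec, the remaining gene of the family and known from macrophages, had 22.3 ± 6.85 TPM, between Tfe3 and Mitf on average. All 14 genes of the list of Tfec, Flcn and its partners, Rag GTPases, Ragulator and mTORC1 reached 1 TPM, from Lamtor1 at 71.2 ± 8.43 to Mtor at 4 ± 0.610, with a median of 17.1 ± 2.55.

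The MiT factors differed in how their transcript TPM was divided among annotated starts. Mitf-202, which begins at the upstream start at base 97807058 of chromosome 6, took 83.6%, 73.0% and 69.7% of the Mitf transcript TPM. Mitf-201, which begins at the downstream start used for the short melanocyte form, took 0%, 0.186% and 0.222%, and 3.04% ± 3.45 in the second quantification. Mitf-208, which is annotated from base 97991921 near that start and holds almost no untranslated sequence, took 17.9% ± 5.21, and 8.75% ± 3.07 in the second quantification, against 58.4% ± 12.2 for Mitf-202. Mitf-207, annotated from base 97807052 beside the start of Mitf-202, took 1.97% ± 0.175, and 19.8% ± 6.54 in the second quantification. The lower share of Mitf-202 there is thus not a like fall in the share of the upstream start. The melanocyte markers Tyr, Pmel, Dct, Tyrp1 and Mlana summed to between 0.13 and 0.33 TPM. Tfeb was divided between Tfeb-202, from base 47737030 of chromosome 17, at 54.2% ± 10.3, and Tfeb-212, from base 47786155, at 42.3% ± 5.79. In the second quantification they took 60.2% ± 27.01 and 11.5% ± 9.95. Tfe3 was divided among 4 coding transcripts of 10% or more, each with its own annotated start, of which Tfe3-205 took 30.3% ± 2.40 and Tfe3-204 28.5% ± 3.90. In the second quantification Tfe3-205 took 15.9% ± 1.66 and Tfe3-204 led with 27.4% ± 4.63.

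Promoter windows of lysosomal genes were searched for the element that MiT factors are known to bind. RefSeq windows of 300 bases (GRCm38.p6, the assembly of mm10), from 250 before to 50 after a start, were found for 40 of the 44 genes, in 53 windows. Asah1, Atp6v0d2, Atp6v1b2 and Atp6v1h were not matched. The E-box CACGTG occurred on either strand in 11 windows (20.8%), against 7.15% of all 32851 windows. Its extension TCACGTG, which contains the E-box, occurred in the same 11 windows, against 3.77% of all, and the palindrome TCACGTGA, which contains both, in 5 windows (9.43%), against 0.974%. By gene, 3 of 8 V-ATPase genes (Atp6v0b, Atp6v0d1, Atp6v1a), 3 of 9 membrane protein genes (Cln3, Lamp1, Mcoln1) and 5 of 17 hydrolase genes (Gaa, Gla, Glb1, Lgmn, Sgsh) held TCACGTG, and no cofactor or MiT gene did. The shares are descriptions with no test, and a match of letters shows no binding. The stretches below are those that lie wholly outside annotated exons of the gene and before the RefSeq start, 5′ to 3′ on the strand of the gene, with the element in capitals.
Atp6v1a (chr16:44139364-44139411, minus strand): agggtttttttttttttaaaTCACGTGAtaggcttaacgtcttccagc
Gla (chrX:134601173-134601253, minus strand): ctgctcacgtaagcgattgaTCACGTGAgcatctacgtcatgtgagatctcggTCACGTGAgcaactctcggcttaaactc
Lamp1 (chr8:13159079-13159160, plus strand): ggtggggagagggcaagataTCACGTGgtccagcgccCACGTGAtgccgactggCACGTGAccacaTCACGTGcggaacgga
Glb1 (chr9:114401009-114401055, plus strand): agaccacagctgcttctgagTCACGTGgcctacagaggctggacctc
Gaa (chr11:119267802-119267848, plus strand): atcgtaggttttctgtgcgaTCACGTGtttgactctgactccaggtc
Lgmn (chr12:102439116-102439162, minus strand): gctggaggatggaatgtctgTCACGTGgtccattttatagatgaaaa
Lamp1 held 4 copies between 62 and 10 bases before its start, and Gla held the palindrome in 2 copies. The Lgmn stretch lies before a RefSeq start but within the gene as annotated by GENCODE, past the start of Lgmn-201 at base 102439813. Lgmn-202 starts farther on, at base 102423769. These 2 transcripts took 51.7% and 48.1% of the Lgmn transcript TPM, so the stretch does not adjoin the start of either. The Atp6v1a stretch also lies within its gene, past the starts of Atp6v1a-205 (base 44139630) and Atp6v1a-206 (base 44139705). It lies before the start of Atp6v1a-202 at base 44139305, which took 77.1% ± 4.62 of the Atp6v1a transcript TPM. The levels of the genes with the element were not alike, from Sgsh at 5.64 ± 0.285 TPM to Lgmn at 531 ± 56.7.

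Replicates differed from one another beyond counting error in nearly all of the 44 genes, but by small amounts. A chi-square test of each gene's counts against library sizes scaled by TMM (trimmed mean of M values, from edgeR) compared libraries, not conditions. It called 43 of the 44 genes at a Benjamini-Hochberg adjusted p under 0.05, with Ppt1 at an adjusted p of 0.0635. The share called was 71.6% of the 14568 genes tested, and 6860 of the 8612 protein-coding genes at 1 TPM in every library were called. With a highest-to-lowest ratio of at least 1.5 in scaled CPM as a further condition, 4 of the 44 were called, against 31.0% of all genes tested and 15.1% of the protein-coding genes at 1 TPM. The median ratio was 1.20 for the 44 genes and 1.23 for those protein-coding genes. In bulk RNA, fewer cells of a type and less RNA per cell cannot be told apart.

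The 4 genes past 1.5-fold came from 3 roles. Atp6v0a1, the a1 form of the proton pump, abundant in neurons, had 178, 327 and 234 scaled CPM in replicates 1, 2 and 3, a ratio of 1.84. Gusb had 156, 240.3 and 186, a ratio of 1.54, and in both genes replicate 2 was the highest and replicate 1 the lowest. Tfeb had 13.0, 8.27 and 10.6, a ratio of 1.58, with replicates 1 and 2 in the opposite order. Atp6v0d2 had 17.4, 16.3 and 11.5, a ratio of 1.51, with replicate 3 apart. Psap was the most even of all, at 11783, 11572 and 11754 scaled CPM, a ratio of 1.02, and Tfe3 was next to it at 137, 139 and 132, a ratio of 1.05. Without replicate 1 none of the 44 genes passed both conditions, without replicate 2 only Atp6v0d2 did, and without replicate 3 the other 3 did. With no filter on low counts Atp6v0d2 did not pass, and in the second quantification Tfeb did not, while Gpnmb and Lipa did.

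Median departures of the 3 larger roles differed in sign in replicate 1 and shared a sign in replicates 2 and 3. The departure of a library is its log2 scaled CPM minus the mean of the other libraries. In replicate 1 the hydrolases had a median departure of -0.093 with 14 of 18 below 0. The V-ATPase genes had one of 0.139 with 8 of 11 above 0, and the membrane proteins one of 0.120 with 7 of 9 above 0. Detected protein-coding genes had a median of 0.013, with 4500 of 8612 above 0. In replicate 2 the medians were 0.190 for the hydrolases, 0.110 for the V-ATPase genes and 0.104 for the membrane proteins, against 0.046 for detected protein-coding genes. In replicate 3 they were -0.089, -0.249 and -0.177, against -0.058. The signs shared in replicates 2 and 3 were thus also those of detected protein-coding genes. Replicate 2 was the highest for 12 of the 18 hydrolases, or 66.7%, against 42.6% of detected genes. Replicate 3 was the lowest for 26 of the 44 genes, or 59.1%, against 39.1%, among them 7 of 9 membrane proteins and 8 of 11 V-ATPase genes. Malat1, given above, was highest in that replicate, and its part in this was not tested. No test was made of these differences between roles.

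**Figure D3:**
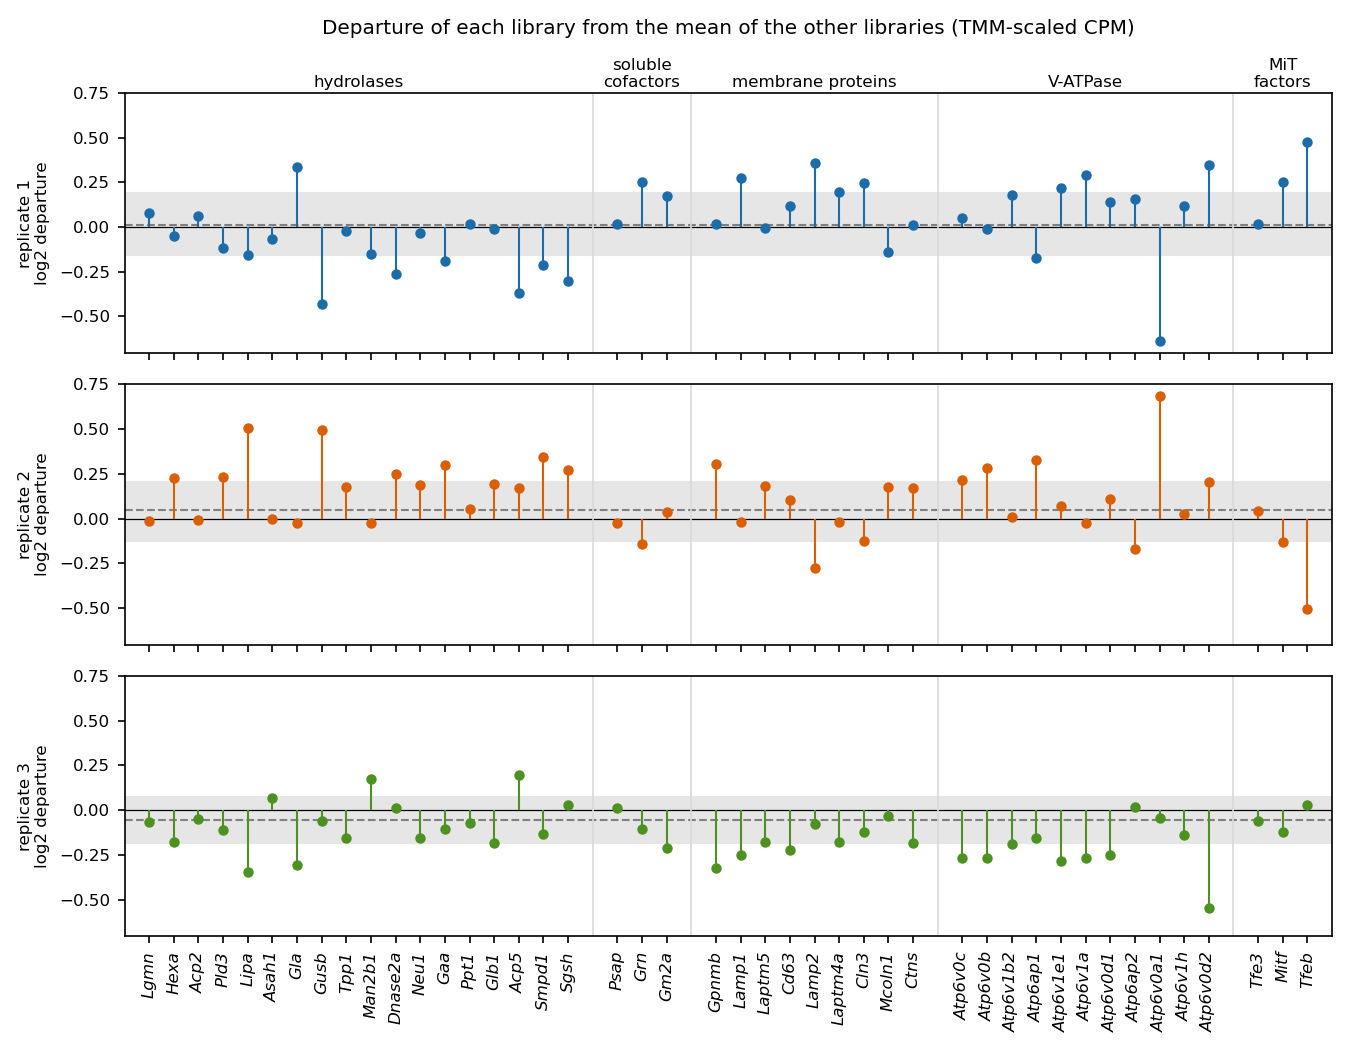
Departure of each replicate from the mean of the others, on log2 of TMM-scaled CPM, for the 44 genes by role; grey bands span the middle 50% of detected protein-coding genes and dashed lines their median. Atp6v0a1 lies farthest from 0 in replicates 1 and 2 and Atp6v0d2 in replicate 3, where most genes lie under 0.

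Most of the 44 genes were carried by 1 transcript. Of 277 annotated transcripts, the leading one took over 50% of its gene's TPM in 42 genes, over 80% in 32 and over 95% in 19, and 3 genes had a single transcript. The leading transcript was the same in the second quantification for 41 genes, the exceptions being Gaa, Cln3 and Tfe3. At least 2 coding transcripts reached 10% in 14 genes, and their coding sequences differed in 9 of these. In the other 5 (Lipa, Lgmn, Acp5, Gaa and Atp6v1a) those transcripts share 1 coding sequence. Lgmn-201 took 51.7% ± 5.15 and Lgmn-202, from a start within the gene, 48.1% ± 5.13, each with a coding length of 1305 bases. Cln3 was the most divided gene, with Cln3-204 at 21.5% ± 2.04 and Cln3-203 at 16.2% ± 5.39. Its non-coding transcripts, meaning any annotated type other than protein-coding, took 25.4%, 35.2% and 34.9%. Cln3 exons share 442 bases with Apobr on the opposite strand (19.7 TPM on average), and the strand setting of the counting is not given in the sources used here.

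**Figure D4:**
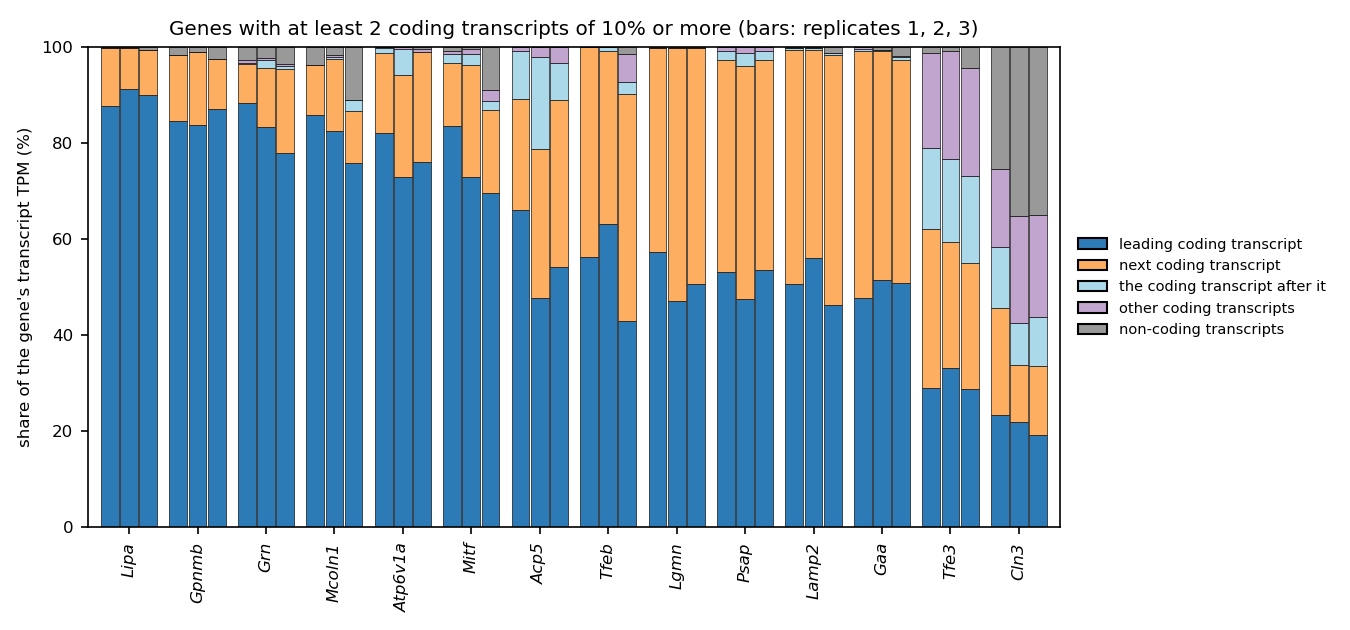
Stacked shares (%) of coding and non-coding transcripts in the TPM of the 14 genes with at least 2 coding transcripts of 10% or more, with 1 bar per replicate. Lamp2, Psap, Lgmn and Gaa are each divided between a pair of transcripts near 50%, and Cln3 among many.

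Non-coding transcripts, meaning any annotated type other than protein-coding, took a small part of the RNA of these genes. They include retained-intron forms, and targets of nonsense-mediated decay, which do carry an annotated coding stretch. Over the 38 of the 44 genes that have a non-coding transcript annotated, the median share of such transcripts was 1.04%, 0.966% and 3.25% in replicates 1, 2 and 3. Over 7146 detected protein-coding genes it was 3.16%, 3.27% and 7.14%. The mean of the 3 medians over the 38 genes was 1.75% ± 1.30, and 1.00% without replicate 3, the highest library in both sets and in 28 of the 37 genes with any such signal. Malat1 was also highest in that library, and its part in the shares was not tested. Besides Cln3, the mean share exceeded 10% in Atp6v0a1, at 19.0%, 16.2% and 23.0%, and in Gusb, at 10.4%, 10.6% and 20.2%. Most of the Gusb share was Gusb-206, a target of nonsense-mediated decay with a coding length of 432 bases, at 13.1% ± 4.99. Which genes exceeded 10% depended on the quantification. In the second, Atp6v0a1 had 22.5% ± 4.47 and Gusb 2.14% ± 2.49, while Asah1 had 35.6% ± 11.3, Acp2 32.4% ± 2.87, Tpp1 26.8% ± 3.29 and Man2b1 18.3% ± 2.37, against 4.10%, 8.43%, 9.64% and 3.59% in the first. Man2b1-203, also a target of nonsense-mediated decay, took 16.9% ± 1.60 in the second.

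The second quantification gave similar levels once each was rescaled to the total of long noncoding and protein-coding genes. Its median log2 ratio to the first was -0.071 over the 44 genes and -0.014 over detected protein-coding genes. No gene moved by 2-fold, and the largest move was that of Cln3, at 0.51. Exons of 13 of the 44 genes overlap those of another gene, and for 4 of them (Cln3, Glb1, Hexa and Ppt1) that gene averaged 1 TPM or more. Ppt1 shares 129 bases with Cap1 (133 TPM) on the opposite strand, and Atp6v0c and Cd63 have processed pseudogenes listed at 4.89 and 3.46 TPM on average.

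The genes lie on 15 chromosomes, and 5 of them (Gla, Lamp2, Atp6ap1, Atp6ap2 and Tfe3) on chromosome X. That is 11.4% of the 44, against 2.91% of detected protein-coding genes. These 5 include members of 4 roles, and their mean levels ran from 33.2 ± 1.96 TPM for Tfe3 to 129 ± 29.7 for Lamp2.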

How the data were processed

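The members, roles and gene lists were chosen with earlier results of these data known. Per the labels, the libraries were total RNA of the cytosolic fraction, from 1 µg with a size range of 250 to 400. The authors deposited a gene table and a transcript table with expected counts and TPM and, per the file headers a second transcript table, with TPM and estimated counts. The TPM interval bounds were deposited as a signal per gene, at a level that no header names. Effective lengths were deposited beside them. The readme files name mm10 and GENCODE M21. Aligner, quantifier and version: not given in the sources used here.

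Gene IDs were matched to symbols through the second transcript table. Rows without a gene were left out of library sizes: they took 0.350% of replicate 1, 0.169% of replicate 2 and 0.168% of replicate 3. Expected counts were rounded for TMM scaling (edgeR 4.0.16) and, as an alternative, for the size factors of DESeq2 1.42.0. The chi-square test covered genes that reached 10 counts in any library and was checked on simulated counts. It treats libraries as separate samples. Which errors the deposited intervals cover is not given in the sources used here, and each interval belongs to a single library. Levels between roles were compared as medians on log2(TPM + 1), with no test, since the labels give 1 group. All 44 genes may be named. Values in every library are given for the 4 highest and the lowest of each role, all MiT and V-ATPase genes and the genes of largest and smallest spread; of other lists, the highest, the lowest and paralogs are named. The values of 1 listed gene are not reported here. Npc2, the neutrophil and endothelial markers, Calcr, the genes of high non-coding share, overlapping neighbours and the promoter stretches were chosen after values were seen. Alternatives were leaving out each library, the second quantification, TPM rescaled to the total of long noncoding and protein-coding genes, a pseudocount of 0.1, TMM-scaled CPM, means, a floor of 1 TPM, DESeq2 factors and no count filter. Software was Python 3.11.15 with scipy 1.17.1, pandas 2.3.3, numpy 2.4.6 and matplotlib 3.10.9, and R 4.3.3.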

Additional observations from a re-analysis of the deposited data

How the results depend on the processing

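Of 79 alternative values of 13 results, 57 kept their direction and size, 21 moved and 1 turned its sign. Many of the 57 could not have come out otherwise, so their number is no measure of robustness. Among them are the means without 1 library, described below, and the floor of 1 TPM, which all 44 genes passed. No paired analysis was possible because the labels give a single group. Without 1 library, the number of genes called between libraries ranged from 34 to 37, and the number past 1.5-fold from 0 to 3, since each test then compares 2 libraries. The other results without 1 library could not have left 1 SD of the value reported. A mean of 2 of the same 3 libraries never departs that far from the mean of all 3. The count of genes at 1 TPM could not fall below 44 either, so leaving out a library does not test these results. TPM levels depend on the denominator: on the second quantification the medians of hydrolases, membrane proteins, V-ATPase genes and MiT factors were 20.4, 61.8, 36.6 and 10.1 TPM, and on TPM rescaled to the total of long noncoding and protein-coding genes 135.1, 436, 246 and 62.1. On TMM-scaled CPM, which is not per length, hydrolases minus V-ATPase became 0.0491, membrane proteins minus hydrolases 0.583, V-ATPase minus MiT factors 0.692 and Atp6v0d2 minus Atp6v0d1 -3.31. With means in place of medians the first 3 of these were -0.622, 1.31 and 2.21. On the second quantification V-ATPase minus MiT factors was 1.76, Atp6v0d2 minus Atp6v0d1 -3.51 and the Lamp2-201 share 56.4%. Atp6v0d2 minus Atp6v0d1 was -4.01 on rescaled TPM and -4.08 with a pseudocount of 0.1. All of these differences kept their sign, apart from hydrolases minus V-ATPase on CPM. The genes past 1.5-fold in the second quantification were Atp6v0a1, Atp6v0d2, Gpnmb, Gusb and Lipa, without Tfeb. Depth limits Tfeb most, with 372 expected counts in replicate 1.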
